A study of Sus scrofa with 23 samples.

Results

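CYP3A29 and CYP3A46 are a pair of pig cytochrome P450 genes, taken here as the 2 probe sets that the platform annotation assigns to them, out of 6765 named genes on the array. They were chosen for their wide span over these same arrays, so their levels are given as a description, with no test. CYP3A29 ran from 4.14 to 12.69 log2 intensity units over the 23 arrays, a span of 8.55 that ranked 4 among the genes. CYP3A46 ran from 3.70 to 10.69, a span of 6.99 that ranked 12, where the median gene spanned 0.96. Each had 1 probe set, the group of short probes that reports 1 transcript, with a value on every array.

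CYP3A enzymes are haem-containing monooxygenases of the endoplasmic reticulum that oxidise drugs, steroids and bile acids with electrons passed on by the reductase POR. They are best known from liver and small intestine. In human hepatocytes the nuclear receptor PXR, encoded by NR1I2, switches CYP3A4 on in response to drugs, and inflammatory cytokines are known to lower it. CYP3A29 is a pig liver P450 that handles substrates of human CYP3A4, and CYP3A46 is another member of the pig subfamily. In the RefSeq gene table of the pig assembly Sscrofa11.1, CYP3A22, CYP3A46 and CYP3A29 follow each other in that order with no other gene between them. That table lists CYP3A39 as another name of CYP3A46, whereas the platform annotation keeps CYP3A39 apart, and such closely related genes may share probes.

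The cells were macrophages grown with recombinant human CSF1 from the bone marrow of 3 Large White x Landrace F1 pigs, pigs 1 and 3 male and pig 2 female per the labels. They were lysed unstimulated (0 h) or 2, 7 and 24 h after 100 ng/ml of lipopolysaccharide (LPS) from Salmonella enterica serotype minnesota Re 595. The labels give 6 arrays each at 0, 2 and 7 h and 5 at 24 h, each pig with a culture and a duplicate at each time except pig 3 at 24 h. Cultures of 1 pig are not independent animals.

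The labels did not match the arrays. EIF1AY, a Y-linked translation factor, was at 8.16 or higher on 15 arrays and at 4.08 or lower on the other 8, and 8 of 23 arrays went against the sex of their labelled pig. In 11 cases a pair of arrays resembled each other more than any other array. All 11 stood in neighbouring columns of the deposited table, and 0 of 11 shared a labelled time. These checks bear on pairs and sex and assign no time to any column. An inferred order was used, which no label gives, and its times were adopted and not derived from these checks. It reads columns 1 to 6 as 0 h and 7 to 12 as 2 h. Columns 13 to 18 are read as 7 h and 19 to 23 as 24 h, with neighbours as duplicate cultures of an animal. EIF1AY was high in the first and the third pair and low in the second pair of every run of columns, on 23 of 23 arrays. The order came from these same arrays, so this is no separate check of it, and it does not bear on the times. Below, "inferred" times and pairs refer to this order; they arrange values and carry no test, and what they show holds only if the order does. Whether the first and the third pairs of different runs came from the same animals rests on the order alone, apart from the levels of the single markers DCN and EPCAM given below.

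Under the inferred order both genes were higher at 7 and 24 h than at 0 and 2 h. CYP3A29 had a median log2 intensity of 4.62 at inferred 0 h, 5.07 at 2 h, 9.67 at 7 h and 11.61 at 24 h. CYP3A46 had medians of 4.14, 4.07, 6.97 and 10.21 at the same inferred times. For both, every inferred 7 h and every 24 h array lay above every 0 h and every 2 h array, while the 2 h arrays overlapped those at 0 h and the 24 h arrays overlapped those at 7 h. As a scale, the lower quartile of all probe sets lay between 4.39 and 4.54 on the arrays and the median between 6.12 and 6.21. No detection calls were used, so the values near 4 are levels with no statement on whether the transcript was present.

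**Figure D1:**
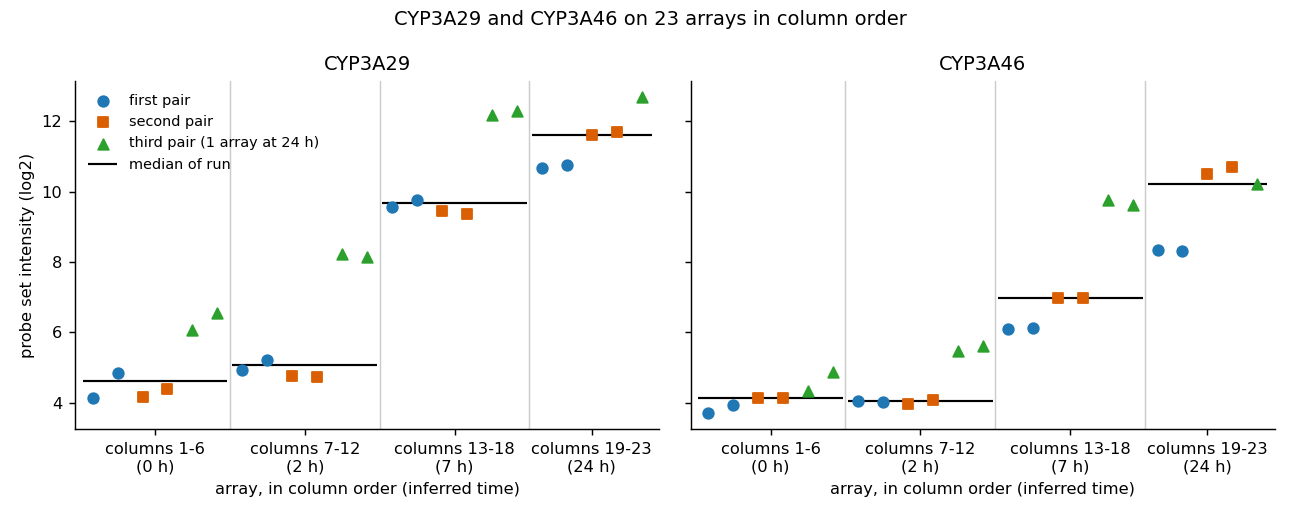
Log2 probe set intensity of CYP3A29 (left) and CYP3A46 (right) on the 23 arrays in column order, with the inferred time under each run; points are arrays, shapes and colours the inferred pairs, lines the run medians. CYP3A29 reached 9.36 to 12.27 at inferred 7 h and CYP3A46 8.31 to 10.69 at inferred 24 h, and the third pair stood highest except for CYP3A46 at 24 h.

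CYP3A29 at inferred 0 h had 4.14 and 4.85 in the first pair, 4.16 and 4.39 in the second and 6.08 and 6.55 in the third. At 2 h the pairs had 4.92 and 5.21, 4.78 and 4.74, and 8.22 and 8.14. The third pair thus stood apart before and early after LPS, and the other pairs were at 5.21 or lower. At 7 h the values were 9.57 and 9.76, 9.46 and 9.36, and 12.18 and 12.27, and at 24 h they were 10.67 and 10.75, 11.61 and 11.70, and 12.69 on the single array of the third pair. Neighbouring arrays differed by a median of 0.10 and at most 0.72, so the steps from 2 to 7 h in each pair were far wider than the difference between duplicates.

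CYP3A46 at inferred 0 h had 3.70 and 3.93 in the first pair, 4.14 and 4.13 in the second and 4.34 and 4.88 in the third. At 2 h it had 4.06 and 4.02, 3.96 and 4.07, and 5.47 and 5.60. Only the third pair lay above its own 0 h arrays by more than the largest difference between neighbouring arrays, 0.54. At 7 h it had 6.08 and 6.13, 6.98 and 6.97, and 9.76 and 9.63, and at 24 h 8.34 and 8.31, 10.51 and 10.69, and 10.21. The first pair had the lowest values at both late times, and at 24 h the second pair had the highest.

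The medians at inferred 7 h differed from those at 0 h by 5.05 for CYP3A29 and by 2.84 for CYP3A46 on the log2 scale. At 24 h against 0 h the differences were 6.99 and 6.08. The 0 h medians lie near the lower quartile of all probe sets and were not shown to be above background, so no linear fold is given. With 32 intensity units added before the logarithm, the 7 h differences were 3.90 and 1.67 and the 24 h differences 5.79 and 4.62. At 2 h against 0 h they were 0.45 and -0.07, with overlapping arrays. The size also depended on single pairs. At 24 h the difference without the second pair was 5.29 for CYP3A29 and 4.20 for CYP3A46, and without the third pair that of CYP3A46 was 5.40. At 7 h the difference of CYP3A46 was 4.06 without the first pair and 3.74 without the second. Both genes were higher with no overlap and a median difference of at least 1 at 7 h and at 24 h, as were 6.12% and 5.91% of all named genes. Since the genes were picked for their span, nothing is read from these counts. In these bulk cultures a change in the share of cells that carry a transcript cannot be told apart from a change in the amount per cell.

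The pairs differed in timing under this order. From 0 to 2 h, CYP3A29 differed by 1.86 in the third pair, against 0.57 in the first and 0.48 in the second. The largest step of CYP3A29 lay between 2 and 7 h in all pairs, with 4.60, 4.65 and 4.05. Between 7 and 24 h the third pair differed by 0.46, the first by 1.05 and the second by 2.24. CYP3A46 was split more evenly over the late steps. It differed by 2.06, 2.96 and 4.16 between 2 and 7 h and by 2.22, 3.63 and 0.52 between 7 and 24 h, in the first, the second and the third pair. For CYP3A29 every pair had most of its 24 h difference from 0 h by 7 h, with 5.17 of 6.22, 5.14 of 7.38 and 5.91 of 6.37. For CYP3A46 the third pair had 5.09 of 5.61 by 7 h, on 1 array at 24 h. The first and the second pair of CYP3A46 had a slightly wider step after 7 h than before it.

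Every array of the third pair lay above all arrays of the other pairs of its run, in all 4 runs, for CYP3A29. This comparison was chosen after the values were seen, and it held for 2.45% of named genes. For CYP3A46 it held in the first 3 runs, as for 4.94% of named genes. Single markers of other cell types also differed between the pairs. EPCAM, an epithelial adhesion protein, lay between 5.98 and 7.29 on the arrays of the third pair and between 4.36 and 5.52 on the others. EPCAM alone set the third pair apart within its list of 7 measured intestinal epithelium markers. The summed intensity of the other 6 was 119 to 139 in the third pair, against 115 to 136 in the first and 118 to 140 in the second. DCN, a stromal proteoglycan and 1 of 4 measured stromal markers, lay between 7.99 and 8.76 in the first pair of all runs, against 4.47 to 5.97 in the others. LUM, of the same list, was highest in the first pair within each run. Over all runs it overlapped, with 5.79 to 9.38 in the first pair, 3.65 to 6.15 in the second and 3.23 to 5.23 in the third. COL3A1 spanned 1.41 and COL1A2 0.62 over all arrays. A further DCN probe set had a mean of 3.27, and its pairs were not compared. The part of these markers in the levels of CYP3A29 was not tested.

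Grouped by their labels instead, both genes spread over nearly their whole range at every time. CYP3A29 ran from 4.14 to 12.18 on arrays labelled 0 h, from 4.74 to 12.27 at 2 h, from 4.16 to 12.69 at 7 h and from 4.39 to 10.75 at 24 h. CYP3A46 ran from 3.70 to 10.51, 3.93 to 10.69, 4.06 to 10.21 and 4.02 to 8.31. In the limma fit of the labelled times, with duplicate cultures averaged and pig as a term, the labelled 2 h arrays differed from 0 h by 0.25 ± 0.56 log2 (SE, 3 labelled pigs) for CYP3A29 and 0.16 ± 0.53 for CYP3A46. The labelled 7 h arrays differed by 0.30 ± 0.56 and 0.14 ± 0.53. The labelled 24 h arrays differed by 0.04 ± 0.56 and -0.17 ± 0.53. All these differences were smaller than their SE.

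**Figure D2:**
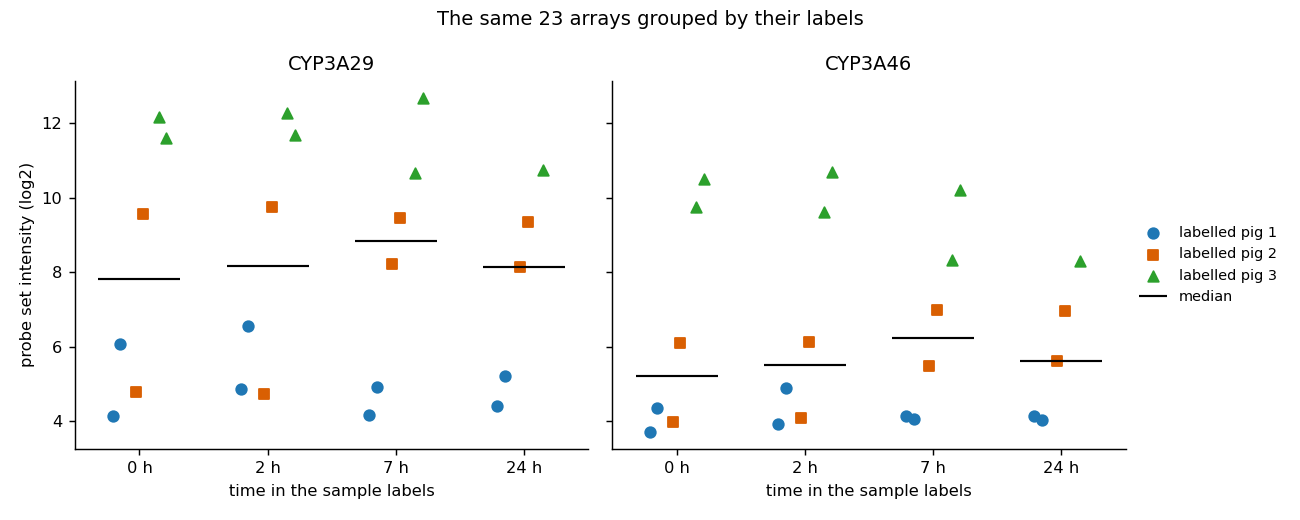
The same log2 intensities of CYP3A29 (left) and CYP3A46 (right) grouped by the time in the sample labels; points are arrays, shapes and colours the labelled pigs, lines the medians. The ranges overlapped at all 4 labelled times, with CYP3A29 from 4.14 to 12.18 on the arrays labelled 0 h.

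The other CYP3A probe sets spanned less, but CYP3A29 and CYP3A46 had been picked for their wide span, so nothing is read from this. CYP3A39 spanned 2.34 log2 units (rank 637) and CYP3A22 1.23 (rank 2326), against 0.96 for the median gene. CYP3A39 had medians of 5.58, 5.59, 6.52 and 6.46 at inferred 0, 2, 7 and 24 h. Its 7 h arrays (5.88 to 6.69) and 24 h arrays (5.96 to 7.75) lay above all 0 h arrays (5.41 to 5.68), with median differences of 0.94 and 0.88. The second pair carried the highest CYP3A39 values, 7.75 and 7.44 at 24 h. A further CYP3A39 probe set, of the kind whose probes are shared by several transcripts, overlapped between runs and had 6.41 and 5.84 in that same pair at 24 h, against 3.99 to 4.44 on the other 24 h arrays. It was also higher in the second pair at 7 h, with 5.02 and 5.11, against 4.06 to 4.20 on the other 7 h arrays. CYP3A22 stayed between 5.98 and 7.21 and its runs overlapped. Over the 23 arrays, which share time, animal and array processing, CYP3A39 had a Pearson r of 0.77 with CYP3A29 and 0.87 with CYP3A46, and CYP3A29 with CYP3A46 one of 0.95. Whether probes shared between the CYP3A genes add to this was not tested, since no probe sequences were used.

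**Figure D3:**
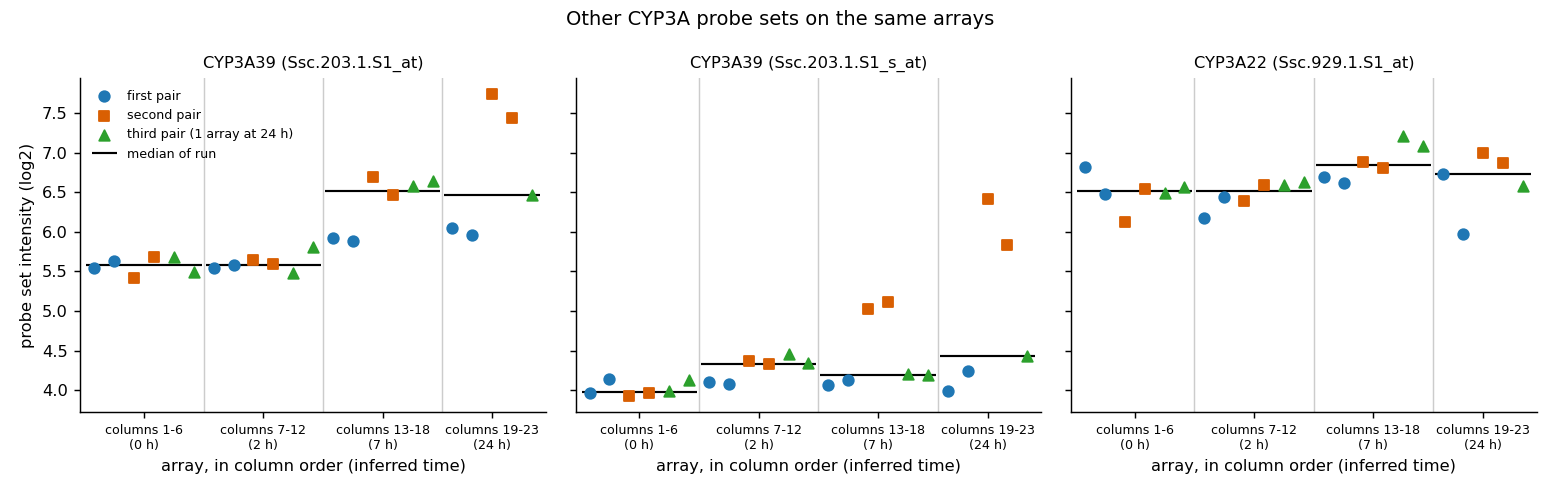
Log2 intensity of the 3 other CYP3A probe sets on the 23 arrays in column order, with inferred times; points are arrays, shapes and colours the inferred pairs, lines the run medians. Both CYP3A39 probe sets were highest in the second pair at 24 h (7.75 and 6.41 on its first array), and CYP3A22 stayed between 5.98 and 7.21.

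Of 9 measured drug and fatty acid P450s, 0 were set apart from 0 h at any inferred time, where 2.2%, 6.12% and 5.91% of named genes were apart and higher at 2, 7 and 24 h and 0.843%, 5.79% and 3.87% apart and lower. With so few genes, 0 of 9 is near these shares. CYP1A1, the target of the dioxin receptor, lay between 3.58 and 4.40 on all arrays, and CYP2E1, the ethanol-inducible P450, between 3.94 and 4.65. CYP2J34 had a median difference of 0.69 at 24 h with overlap. CYP2D25 had one of -0.68 at 2 h, where its arrays (8.74 to 9.12) lay below all 0 h arrays (9.39 to 9.59). Its other probe set, at a lower mean level, differed by 0.07 at 2 h and so did not show this. Among 12 sterol and vitamin P450s, 1 was apart and higher at 7 h, and at 24 h 2 were higher and 1 lower. CYP27B1, which makes active vitamin D, had medians of 5.81, 6.64, 8.78 and 8.06. CYP7A1, the rate-limiting enzyme of bile acid synthesis in liver, had 4.55, 4.70, 3.94 and 7.08, so it stood high at 24 h alone. The probe set that stood for CYP19A3, an aromatase, differed by -1.07 at 24 h, whereas its 7 other probe sets differed by -0.11 to 0.15. CYP51, the sterol demethylase, had a median difference of -0.70 at 24 h.

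Among 11 genes of electron transfer and haem, ALAS1 was apart and higher at 2 and 7 h, or 1 of 11 against 2.2% and 6.12% of named genes, and 0 were apart at 24 h. ALAS1, the first enzyme of haem synthesis, had medians of 9.84, 10.92, 11.07 and 9.73, so it stood high at inferred 2 and 7 h and back near its 0 h level at 24 h. POR had medians of 8.42, 8.31, 9.41 and 8.85. Its 7 h arrays (8.88 to 9.68) lay above all 0 h arrays (8.20 to 8.74), with a median difference of 0.98. The third pair had the highest POR at 7 h (9.60 and 9.68) but the lowest at 0 h (8.20 and 8.22), and at 24 h its array (8.85) lay below the second pair (9.25 and 9.34). POR thus did not keep the order of pairs of CYP3A29. Other genes of the list lay below all 0 h arrays by less than 1. FECH, the last enzyme of haem synthesis, had median differences of -0.85 at 7 h and -0.82 at 24 h, and CYB5A, cytochrome b5, had -0.43 and -0.86. HMOX1, the haem-degrading oxygenase, ran from 9.80 to 12.53 and CYB5B from 7.63 to 9.41, with overlapping runs.

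Among 23 measured regulators known from the control of CYP3A genes in liver, 1 was apart and higher at 2 h, against 2.2% of named genes. At 7 h 2 were higher and 1 lower, against 6.12% and 5.79%, and at 24 h 4 were higher and 0 lower, against 5.91% and 3.87%. No test of the list was made. Their median difference was 0.14 at 7 h and 0.15 at 24 h, against -0.05 and -0.03 for all named genes. CEBPB, a transcription factor of the acute-phase response, had medians of 11.54, 12.57, 13.01 and 13.33. NCOA1, a nuclear receptor coactivator, had 7.92, 8.17, 10.13 and 9.52, and its other 5 probe sets were also higher at 7 h, by 0.98 to 2.42. PPARG, a lipid-sensing receptor, had 7.68, 8.51, 5.74 and 8.95, low at 7 h and high at 24 h. NR1H3, the oxysterol receptor LXR alpha, had 11.02, 10.69, 11.70 and 12.16. The PXR gene NR1I2, named after its values were seen, stayed between 4.33 and 4.72 on all arrays, a span narrower than that of the median gene.

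Of 8 transporters, 2 were apart and higher at 7 and at 24 h, against 6.12% and 5.91% of named genes. ABCB1, the drug efflux pump P-glycoprotein, had medians of 6.00, 6.22, 8.80 and 9.46, and the order of the pairs was not that of CYP3A29, since at 0 h the lowest ABCB1 values were those of the third pair (5.18 and 5.32). A second ABCB1 probe set differed by 0.82 at 7 h and 1.05 at 24 h and the third by 0.11 and -0.13. SLC22A3, an organic cation transporter, had 4.15, 4.29, 5.36 and 5.68. ABCG2, another efflux pump, and the anion transporter SLCO2B1 had median differences of -0.50 and -0.51 at 24 h, both with arrays that overlapped those at 0 h. The other ABCG2 probe set differed by -0.02 at 24 h. Among 12 conjugation and related enzymes, 2 were apart and lower at 24 h, against 3.87% of named genes. These were EPHX2, the soluble epoxide hydrolase (8.16, 8.22, 8.12 and 6.76), and NQO1, a quinone reductase (10.44, 10.25, 9.83 and 9.22). The glutathione transferases GSTO1 and GSTK1 had differences of -0.78 and -0.56.

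**Figure D4:**
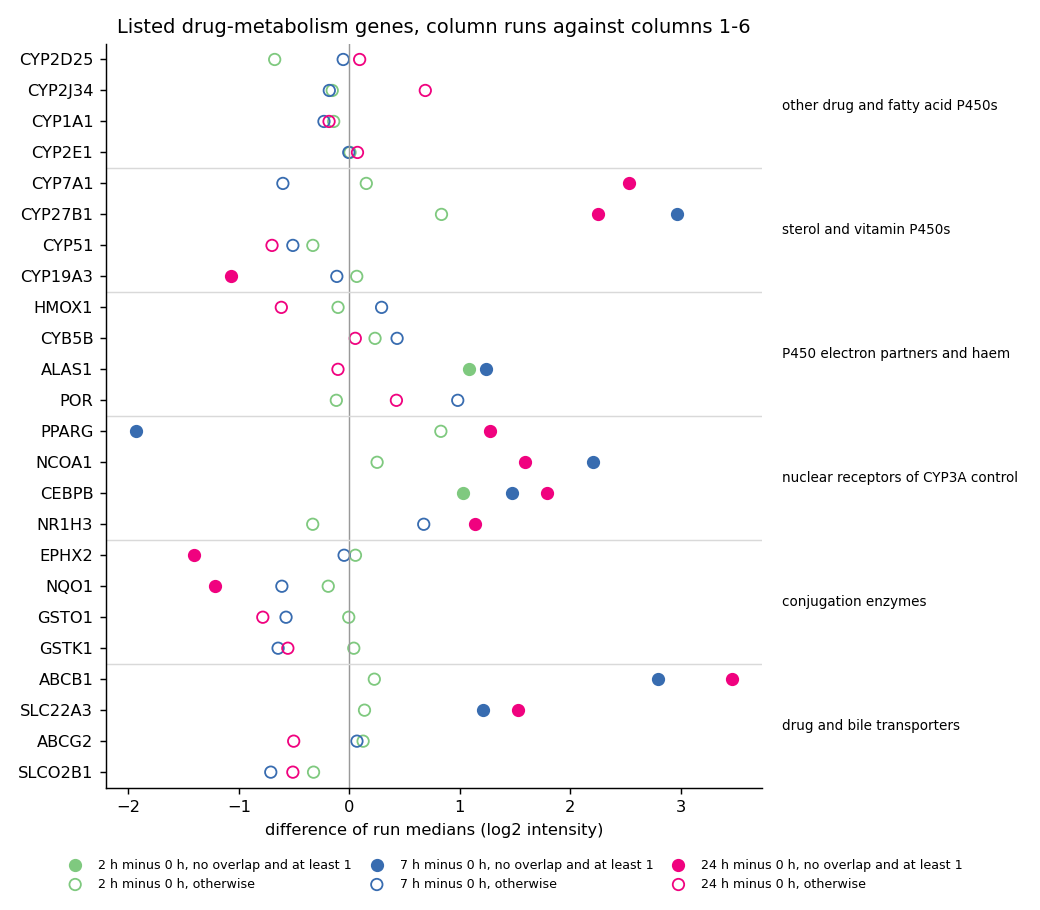
Difference of run medians from columns 1 to 6 (log2 intensity, x axis) for the 4 genes with the widest span in each of 6 lists of drug-metabolism genes (y axis), coloured by inferred time; filled points mark runs without overlap and a difference of at least 1. The largest difference among these genes was that of CYP27B1 at inferred 7 h, 2.97, and that of ABCB1 at 24 h, 3.47.

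In the limma test of the labelled times, 0 of 123 list genes other than CYP3A29 and CYP3A46 passed, with adjusted p (Benjamini-Hochberg, over all probe sets) of 0.914 or higher, and 11 of 369 tests had an unadjusted p under 0.05. Over all 23999 probe sets the labelled comparisons called 0.0125% at 2 h, 0% at 7 h and 0.00417% at 24 h, while 521, 754 and 986 had an unadjusted p under 0.05. The labels failed the checks above, so these counts say nothing on LPS.

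Markers of liver cells overlapped between the runs in which the CYP3A genes were apart. The summed intensity of 9 hepatocyte markers was 252 to 305 at inferred 24 h and 264 to 295 at 7 h, against 227 to 280 at 0 h. None of them was set apart, which with 9 genes is near the shares over all named genes. Those shares, which also apply to the marker lists below, were 6.12% higher and 5.79% lower at 7 h. At 24 h they were 5.91% and 3.87%. ALB, the serum albumin gene, stayed between 3.94 and 4.59. The 6 measured macrophage markers summed to 31952 to 33997 at 24 h and 30024 to 32162 at 7 h, against 26561 to 29398 at 0 h. Most of this sum was CTSS, at 14.19 to 14.43 log2, and AIF1, at 12.62 to 13.36, so it does not speak for the list. CD14 was apart and higher at 7 and 24 h. CD163 was so at 24 h, after a median difference of -1.10 with overlap at 7 h. MRC1 was set apart at neither time. Some markers of other blood cells were higher at the late times. Among 5 granulocyte markers, S100A9 and LTF were higher and ELANE lower at 24 h, while the arrays of S100A8 and S100A12 overlapped those at 0 h. The summed intensity of the 5 was 13160 to 15746 at 24 h, against 1197 to 3759 at 0 h. Most of the 24 h sum was S100A9 alone, at 13.56 to 13.73 log2, so the sum does not speak for the list. Of 3 T and NK cell markers, CD2 was higher at 7 and 24 h, while CD3E stayed between 4.21 and 4.99 and CD3D between 5.61 and 6.31. Stromal markers summed to 289 to 613 at 24 h and 286 to 1288 at 0 h, and CD79B, the only B cell marker measured, stayed between 4.10 and 4.51. The part of these markers in the CYP3A levels was not tested.

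TNF and IL1B, cytokines that macrophages release on LPS, had a different course from the CYP3A genes. TNF had medians of 5.60, 12.50, 11.09 and 7.84 at inferred 0, 2, 7 and 24 h, and IL1B 7.83, 14.13, 13.99 and 12.98. The 24 h median of TNF hides a split between pairs. The first pair had 6.20 and 6.33, the second 10.66 and 10.39, and the single array of the third 7.84. The second pair was thus still near its 7 h values of 11.14 and 11.04. TNF and IL1B both stood high at 2 h, when CYP3A29 and CYP3A46 in the first and the second pair were within the range of all 0 h arrays. For CYP3A29 the top of that range came from the third pair. Its 2 h arrays in the first and the second pair lay above their own 0 h arrays, by 0.57 and 0.48 in pair means. These steps were below the largest difference between neighbouring arrays, 0.72. The interferon gamma-inducible chemokine CXCL9 had 4.79, 9.44, 12.72 and 13.55. Of 12 LPS response genes 11 were apart and higher at each inferred time, against 2.2%, 6.12% and 5.91% of named genes at 2, 7 and 24 h. IL6 was the exception. Over the 23 arrays the Pearson r of CYP3A29 was 0.20 with TNF, 0.52 with IL1B and 0.88 with CXCL9, and that of CYP3A46 was 0.13, 0.44 and 0.82.

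Among 3212 other genes that spanned at least 1 log2 unit, GUCY1B3, a subunit of soluble guanylate cyclase, was most like CYP3A29, with a Pearson r of 0.98 over the 23 arrays. It ran from 5.67 to 7.67 at inferred 0 h, 6.42 to 7.88 at 2 h, 8.38 to 9.78 at 7 h and 8.72 to 9.99 at 24 h, with the third pair highest in each run. Next came the autophagy receptor OPTN and the class I MHC gene SLA-3 (r of 0.97 each), CXCL13, a chemokine for B cells (0.97), the prostaglandin E synthase PTGES (0.97) and ANG, a secreted ribonuclease (0.97). Genes most opposed to CYP3A29 were DLST, an enzyme of the citric acid cycle, PHOSPHO2 and CASP6, an executioner caspase, each with an r of -0.97. For CYP3A46 the most like were MED6, a Mediator subunit (0.98), SLA-6, EVL, CHMP5, COX7A1 and TAPBP (0.96 each), of which TAPBP and SLA-6 belong to class I antigen presentation. The most opposed were the chromatin proteins HMGN1 and HMGB1 and the membrane protein EMP3 (-0.98 each). Other probe sets did not all follow those used. At 7 and 24 h an HMGB1 probe set with a mean of 10.38 differed from 0 h by 0.22 and -0.12, against -0.60 and -0.96 for the one used. Low probe sets of SLA-6 (0.03 and 0.08) and GUCY1B3 (0.08 and 0.26) also changed little. A further probe set of HMGB1 and of GUCY1B3 and those of CXCL13, CASP6 and EVL moved as the ones used. CYP3A46 itself ranked 15 among the genes like CYP3A29, and CYP3A29 ranked 8 among those like CYP3A46. Arrays of one run and pair share their time and animal, so these values are not from 23 independent samples.

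**Figure D5:**
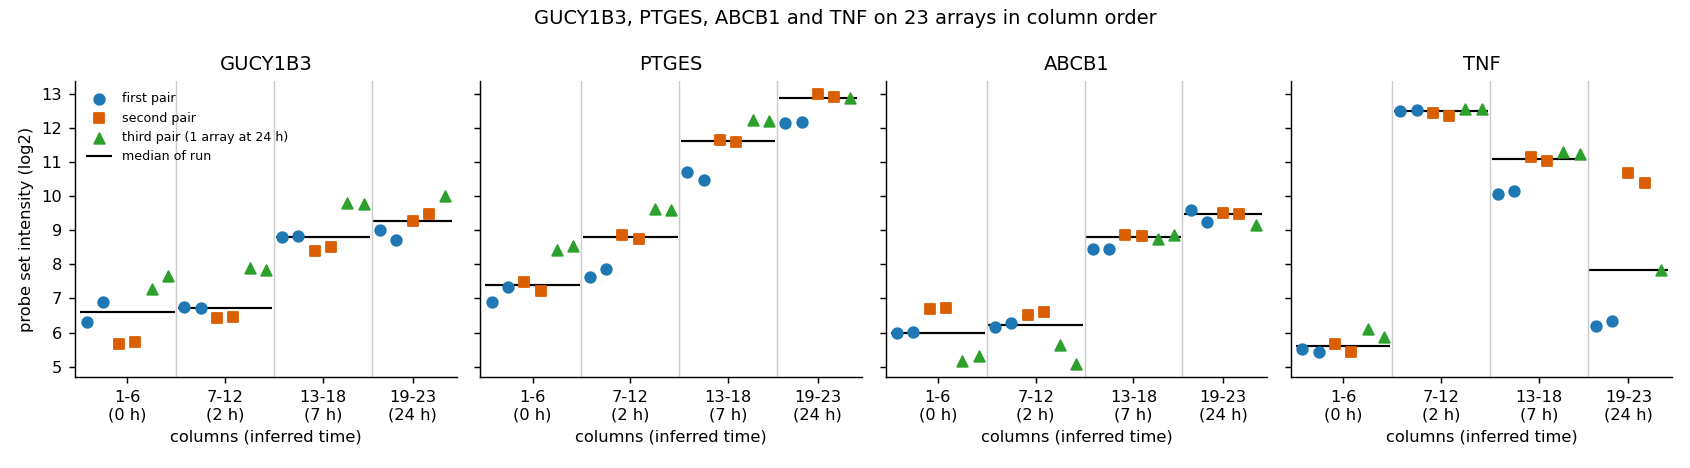
Log2 intensity of GUCY1B3, PTGES, ABCB1 and TNF on the 23 arrays in column order, with inferred times; points are arrays, shapes and colours the inferred pairs, lines the run medians. GUCY1B3 and PTGES follow the order of runs of CYP3A29, whereas TNF is highest at inferred 2 h, with a median of 12.50.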

How the data were processed

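RNA from pig macrophage cultures was hybridized to Affymetrix porcine arrays, 1 per culture. The deposited values are probe set intensities on the linear scale, computed by the authors with RMA in affy, as the submitters' processing notes name them; the sources used here give no version or genome build. RMA compresses differences at low intensity. The log2 of each value was used without further normalization. From 24123 probe sets, 124 controls were left out, and 10069 of the rest had 1 gene and 198 several in the platform annotation. The probe set with the highest mean stood for a gene. Symbols were updated through gene identifiers in the RefSeq table.

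Labelled times were tested with limma 3.58.1 (R 4.3.3) on 12 pig-by-time means with time and pig as terms, 6 residual degrees of freedom and Benjamini-Hochberg adjustment at 0.05. Pig was kept because the series description gives the same pigs at each time. Deviations of a labelled pig from the time means correlated at 0.27 to 0.97 with those at 0 h, but each labelled 0 h array is the column neighbour of a labelled 2 h array of the same pig, so this gives no check of a pig effect. The number of arrays limits the precision.

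Column runs were described by medians, ranges and overlap. A gene counted as apart if the arrays of both runs did not overlap and the medians differed by at least 1. Named genes were the CYP3A genes, up to 4 of widest span per list, landmarks, and the 6 most and 3 least correlated genes among those spanning at least 1. Members and lists were chosen with earlier results of these data known.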

Additional observations from a re-analysis of the deposited data

How the results depend on the processing

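Grouping the arrays by their labels in place of the inferred order lowered the differences from 0 h at 7 and 24 h to 1.02 and 0.31 for CYP3A29 and to 1.01 and 0.39 for CYP3A46. Adding 32 intensity units before the logarithm lowered them to 3.90 and 5.79 for CYP3A29, and to 1.67 and 4.62 for CYP3A46. Leaving out a pair gave 0.57 to 1.22, 5.24 to 5.59 and 5.29 to 6.90 for CYP3A29 at 2, 7 and 24 h, and 0.013 to 0.63, 2.52 to 4.06 and 4.20 to 6.27 for CYP3A46. Means in place of medians and quantile normalization moved these 6 differences by less than the spread between pairs. The platform annotation gave no second probe set of either gene to try. Under the RefSeq table, which lists CYP3A39 as another name of CYP3A46, the CYP3A39 probe sets would be further CYP3A46 probe sets. They differed from 0 h by 0.94 and 0.22 at 7 h and by 0.88 and 0.46 at 24 h. The CYP3A46 probe set used here differed by 2.84 and 6.08. With median differences of at least 0.5 or 2, the genes apart from 0 h numbered 572 or 73 at 2 h (206 at 1), 1916 or 224 at 7 h (806) and 1671 or 184 at 24 h (662). The labelled limma counts were 3, 0 and 1 at 2, 7 and 24 h. They became 2, 0 and 2 with no replicate block, 11, 0 and 7 with pig-by-time as a random block and 0, 0 and 0 with quantile normalization, and ranged from 0 to 0 without a pig. The list of 6 most like genes shared 3 for CYP3A29 and 2 for CYP3A46 with that by Spearman's rho, and 5 each with that over 12 averaged pairs. Low signal limits the inferred 0 and 2 h levels, and the causes were not tested.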
